A study of Mus musculus with 4 samples.

Results

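Kruppel-like factors (KLFs) were followed in mouse morulae, the compacted cleavage-stage embryos that precede the blastocyst, after knockdown of the nuclear receptor gene Nr1h2. The 7 members are Klf17, Klf2, Klf3, Klf4, Klf5, Klf6 and Klf9, taken by symbol as family genes with roles in the early embryo. All 7 were among the 13658 genes of the authors' deposited table and all had an adjusted p. Wild-type fertilized eggs received 4 to 5 pL of siRNA at 100 µM at the 1-cell stage and were cultured in M16 medium until morula. In 2 samples the siRNA pool was directed against Nr1h2, which encodes the oxysterol receptor LXRβ (siNr1h2), and in the other 2 it was a non-targeting pool (siNT). Every embryo was therefore injected, and no uninjected group is part of the comparison. The labels give neither the number of embryos in a sample nor whether the replicates were separate injection sessions, so p-values measure only the spread between these samples, which may be technical.

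KLFs are transcription factors that bind GC-rich and CACCC sequences through tandem zinc fingers at their carboxyl end and differ in the domains that recruit activators or repressors. In mouse embryonic stem cells Klf2, Klf4 and Klf5 act redundantly with Pou5f1, Sox2 and Nanog to hold naive pluripotency. Klf4 is a target of LIF-STAT3 signalling there, and Klf5 is needed in the blastocyst by both the inner cell mass and the trophectoderm. Klf17 is a germ-cell and early-embryo gene in the mouse and marks the naive epiblast in humans.

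The measurements come from 1 comparison, siNr1h2 over siNT, which the authors computed and deposited with no value per sample, so the depth of each library is unknown. Each gene has a mean normalized count over the 4 samples (its reads after division by library size factors), a log2 fold change with its standard error, and a Wald-test p adjusted over 12069 genes. In the authors' deposited table the siRNA target Nr1h2 stood at -2.33 ± 0.19 (log2 fold change ± SE). All 10 of a list of morula marker genes had a row, with mean normalized counts between 90.8 for Sox2 and 58013 for Dppa5a. Of the markers of other cells, 4 of 10 cumulus and granulosa genes had a row (means of 1.94 to 65.1), 2 of 6 blood genes (19.6 and 24.6) and 0 of 5 sperm genes. Amhr2, at the top of the cumulus and granulosa range, stood at 0.80 ± 0.35 (Wald test, unadjusted p = 0.022, adjusted p = 0.276). The log2 fold changes of Star, Cyp19a1 and Foxl2 lay below 0.

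Among the members, Klf17 changed. In the authors' deposited table its level fell by a factor of 1.70 in siNr1h2 relative to siNT embryos (95% interval 1.32 to 2.18 times, log2 fold change -0.76 ± 0.18 SE, DESeq2 Wald test, adjusted p = 0.00489). The other 6 members, Klf2, Klf3, Klf4, Klf5, Klf6 and Klf9, missed the threshold. In the authors' deposited table their log2 fold changes ran from -0.27 to 0.18, with adjusted p of 0.687 or more. At a threshold of 0.05 the table held 184 lower genes, 1.52% of those tested, and 55 higher genes, 0.456%, together 1.98%. The 1 lower member of 7 stands beside that background, and 1 gene says nothing of the family as a whole. The split of all genes depended on the scaling, with 442 lower and 36 higher genes after centring on ribosomal protein genes and 142 lower and 82 higher after centring on genes with means of at least 500, and Klf17 was lower under both. The Klf17 call was lost with Holm adjustment (adjusted p = 0.374) and with a t distribution with 2 degrees of freedom (adjusted p = 0.948). Under the t distribution 0 genes of the table passed, so that loss is not specific to Klf17. The call held in the other 10 of 12 alternatives, all of which reuse the deposited fold changes and errors. Thresholds of 0.01 and 0.1 and a fold of at least 1.5 left its values unchanged and could not lose it. The tally is therefore no measure of stability.

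The promoter sequence of Klf17, the member that changed, is shown with that of Klf4, which lies on the same chromosome and did not pass. Both are RefSeq windows of build GRCm38.p6, from 250 bases before the annotated start to 50 after it, written 5′ to 3′ on the gene's own strand. The submitters' notes name mm9, so these positions are not those of the authors' alignment. The Klf17 window is chr4:117765617-117765916 and the Klf4 window chr4:55532426-55532725, both on the minus strand. Capitals mark the CACCC box, the core that KLFs bind, in either orientation (CACCC or GGGTG).
Klf17: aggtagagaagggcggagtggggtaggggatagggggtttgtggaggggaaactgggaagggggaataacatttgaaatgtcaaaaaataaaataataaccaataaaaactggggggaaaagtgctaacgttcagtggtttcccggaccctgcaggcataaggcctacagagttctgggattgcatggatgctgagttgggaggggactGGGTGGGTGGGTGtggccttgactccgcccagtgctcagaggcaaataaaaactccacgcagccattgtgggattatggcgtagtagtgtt
Klf4: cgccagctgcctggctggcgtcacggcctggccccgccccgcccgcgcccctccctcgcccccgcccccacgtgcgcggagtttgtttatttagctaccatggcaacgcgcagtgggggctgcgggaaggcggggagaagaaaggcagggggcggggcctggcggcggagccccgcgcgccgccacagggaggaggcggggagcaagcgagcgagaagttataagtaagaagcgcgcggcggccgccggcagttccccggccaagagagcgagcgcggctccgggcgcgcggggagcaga

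The 2 windows differ in base composition. The Klf17 window had a GC content of 50.7% with 6 CpG sites, a ratio of observed to expected CpG of 0.38, and the Klf4 window had 74.3% with 40 sites, a ratio of 0.97. Of the 10769 genes of the table with a RefSeq window, 16.6% had a lower CpG ratio than Klf17. Among the 6 members with a window Klf17 had the lowest GC content and the lowest CpG ratio. The other ratios were 0.66 for Klf3, 0.84 for Klf6, 0.89 for Klf2 and 0.96 for Klf9.

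The Klf17 window held 3 CACCC boxes, which overlap each other by their end bases and begin at -41, -37 and -33 from the annotated start, and the Klf4 window held 0. Klf3 had 5 such boxes, Klf2 and Klf9 had 1 each and Klf6 had 0. On either strand the box occurred in 62.7% of all 10769 windows, and 10.7% had 3 or more. The GC box (GGGCGG or CCGCCC) occurred 6 times in Klf3, 4 times in Klf4, 2 times each in Klf17 and Klf2 and 1 time in Klf6, against 62.6% of all windows with at least 1. The half-site AGGTCA, a core bound by nuclear receptors, was found on neither strand in any of the 6 member windows and in 12.5% of all windows. These matches describe the letters of the windows and do not show binding.

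**Figure D1:**
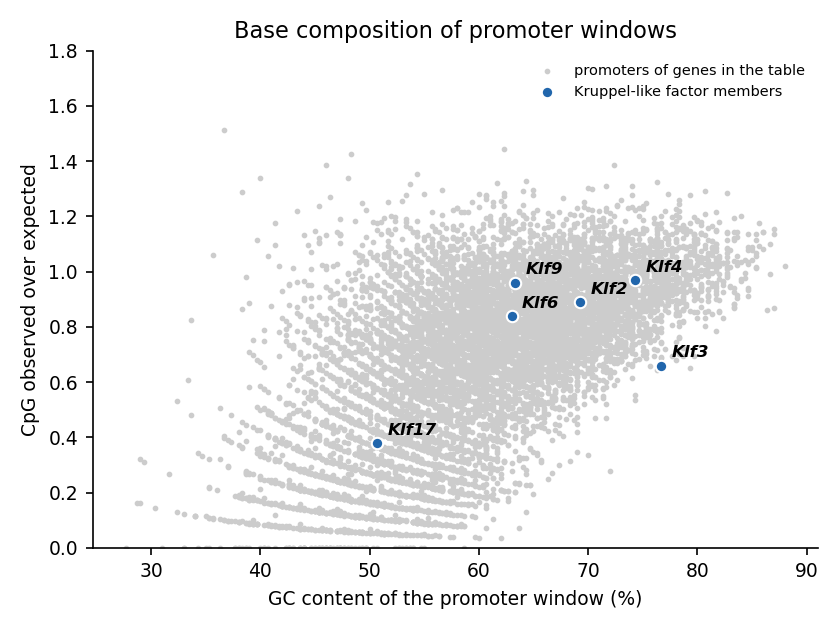
GC content of the promoter window in percent (horizontal axis) against the ratio of observed to expected CpG (vertical axis) for genes of the deposited table (grey points) and the 6 members with a RefSeq window (blue points). Klf17 lies at 50.7% and 0.38, below the other 5 members, which lie between 0.66 and 0.97.

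Klf17 averaged 363 normalized counts over the 4 samples in the authors' deposited table, more than 66.6% of the genes listed. With 2 samples in each group, this mean and the fold change imply about 269 normalized counts in siNr1h2 and 457 in siNT morulae. These implied group levels carry no standard deviation, because the table has no value per sample, and whether the samples of the 2 groups overlap cannot be read from it. By p Klf17 ranked at 70 among all lower genes, and by size of change at 87 among the 184 lower genes past the threshold. To pass, a gene with its standard error needed a change of 1.52 times.

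The Klf17 transcript comes from chromosome 4 and no annotated exon of another gene overlaps it, in either orientation. Its sequence is shared in part with the processed pseudogene Gm20690 on chromosome 3. Runs of 50 identical bases covered 317 of the 2400 bases of the Klf17 transcript (13.2%), all inside its coding sequence, between bases 269 and 586. Reads from this stretch could be assigned to either copy, and the treatment of such reads is not given in the sources used here. No other Klf or Sp transcript shared a run of 50 bases with Klf17 or with any other member.

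Klf17 transcript is also present in oocytes, so transcripts of the egg are given beside it. Of 9 oocyte genes, such as the zona pellucida gene Zp3 and the growth factor gene Bmp15, 7 had a row, at mean normalized counts of 5.32 to 78.1 in the authors' deposited table. Their summed implied level was 134 in siNr1h2 and 170 in siNT morulae, and without Zp3 the sums were 75.6 and 72.7. In that remainder Bmp15 was lower (9.66 in siNr1h2, 25.9 in siNT), while Zp2 (24.7 and 12.4) and H1foo (14.8 and 7.52) were higher. Among the 7 oocyte genes, the log2 fold changes of 4 lay below 0 and of 3 above. The 3 with the smallest p-values were Zp3 at -0.73 ± 0.32 (SE), Bmp15 at -1.42 ± 0.66 and Zp2 at 0.99 ± 0.68. None of the 5 with an adjusted p passed the DESeq2 Wald test of the authors' deposited table, and 2 had an unadjusted p under 0.05. Their part in the Klf17 value was not tested. The mean count of Klf17 was above those of all 7. Dppa3, a maternal and germ-cell gene outside this list, had a mean of 147367. Its log2 fold change was -0.26 ± 0.11 (SE, DESeq2 Wald test, adjusted p = 0.271), and its relation to Klf17 was not tested.

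**Figure D2:**
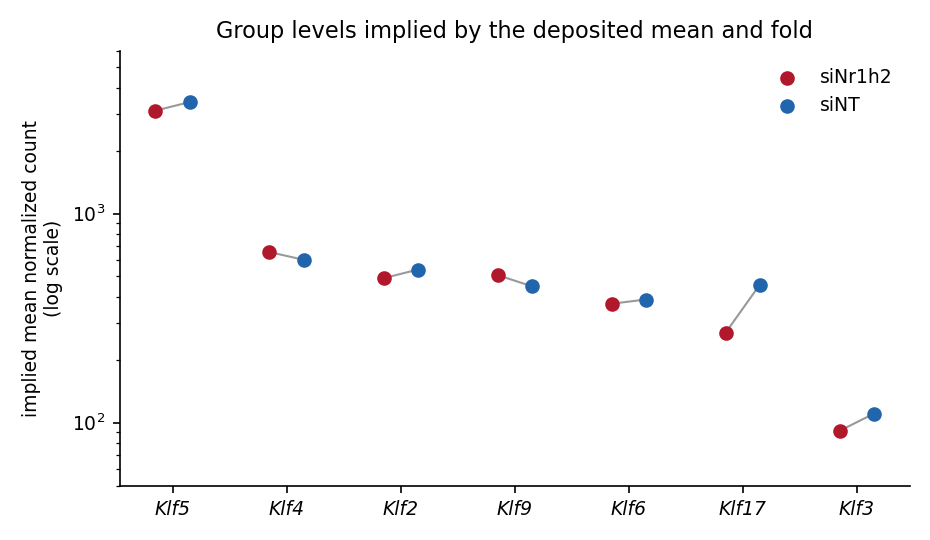
Mean normalized count in siNr1h2 (red) and siNT (blue) morulae on a log axis, as implied by the deposited mean over 4 samples and the deposited fold change, for the 7 members from the highest mean to the lowest. Klf17 stands at 269 in siNr1h2 and 457 in siNT, and the points of the other 6 members lie close to each other.

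Klf2, Klf4 and Klf5, the factors of naive pluripotency, did not pass, and their log2 fold changes lay on both sides of 0. Klf5 averaged 3257 normalized counts, with implied levels of 3104 in siNr1h2 and 3410 in siNT morulae and a log2 fold change of -0.14 ± 0.12 (SE, adjusted p = 0.687, authors' deposited table). Its 95% interval ran from 0.774 to 1.07 times the siNT level. It was the most precisely measured member, and a change of 1.31 times would have passed.

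Klf4 averaged 628 normalized counts in the authors' deposited table, with implied levels of 654 in siNr1h2 and 601 in siNT morulae. Its log2 fold change was 0.12 ± 0.16 (SE, adjusted p = 0.813), with an interval of 0.871 to 1.36 times, and it turned to -0.04 when a trend over length and base composition of the transcripts was removed. Klf2, a target of Pou5f1 in embryonic stem cells, averaged 515 normalized counts, with implied levels of 491 in siNr1h2 and 539 in siNT morulae. Its log2 fold change was -0.14 ± 0.16 (SE, adjusted p = 0.783, authors' deposited table), with an interval of 0.731 to 1.13 times. The intervals of these 3 genes leave room for changes smaller than those needed to pass, which were 1.31 times for Klf5, 1.44 for Klf2 and 1.45 for Klf4.

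Klf3, Klf6 and Klf9 are expressed in many tissues. Klf3, a repressor that recruits the CtBP corepressors, averaged 101 normalized counts, with implied levels of 91.5 in siNr1h2 and 110 in siNT morulae. Its log2 fold change of -0.27 ± 0.29 (SE, adjusted p = 0.754, authors' deposited table) had the largest error of the 7, with an interval of 0.562 to 1.22 times, and a change of 1.92 times was needed to pass. Its annotated exons overlap those of Gm20033 on the opposite strand, and because the libraries are not stranded, reads from the stretch they share cannot be told apart. That stretch held 356 of the 11430 runs of 50 bases in Klf3 transcripts. Counting Gm20033, 44 other genes shared runs with Klf3 transcripts, and 398 runs were shared in all.

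Klf6, an activator needed for blood and liver formation in the mouse, averaged 379 normalized counts in the authors' deposited table. Its implied levels were 370 in siNr1h2 and 388 in siNT morulae, with a log2 fold change of -0.07 ± 0.18 (SE, adjusted p = 0.926) and an interval of 0.746 to 1.22 times. Klf9, a hormone-responsive factor known as a partner of the progesterone receptor in the uterus, averaged 478 normalized counts, with implied levels of 508 in siNr1h2 and 449 in siNT morulae. Its log2 fold change was 0.18 ± 0.16 (SE, adjusted p = 0.709, authors' deposited table), the highest of the 7, with an interval of 0.906 to 1.41 times.

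**Figure D3:**
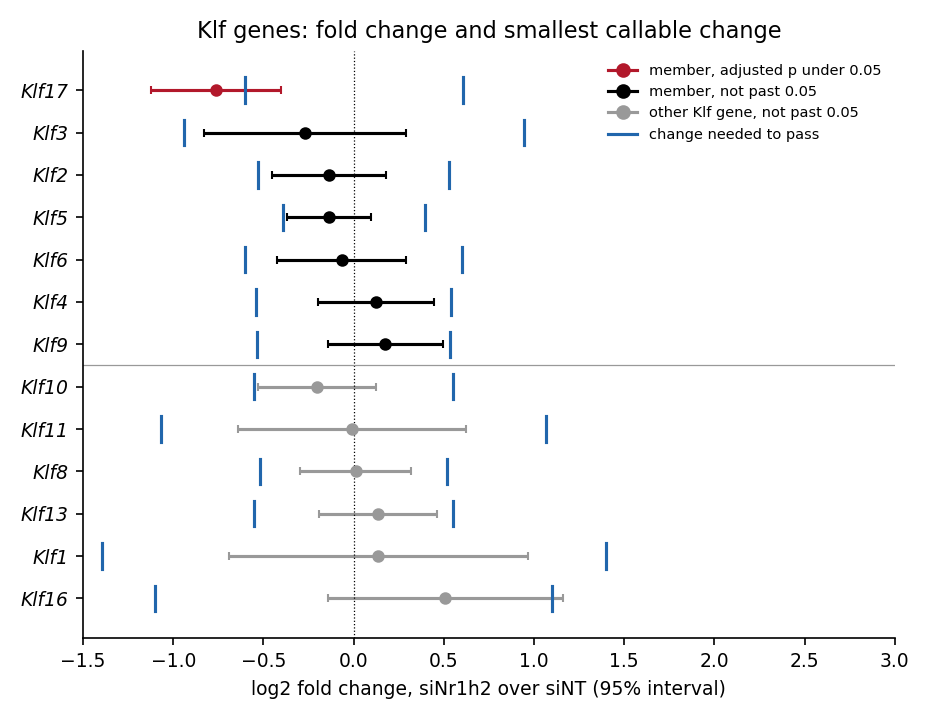
Log2 fold change of siNr1h2 over siNT with its 95% interval (horizontal axis) for the 7 members (upper rows) and 6 other Klf genes with an adjusted p (lower rows), where blue ticks mark the change each gene needed to pass. Klf17 at -0.76 is the 1 gene beyond its tick, and the other 12 lie between theirs.

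Differences between members were computed for all 21 pairs. The log2 fold change of Klf17 lay below that of Klf9 by the widest margin, with a difference of -0.94 (95% interval -1.42 to -0.46). The differences were -0.89 (-1.37 to -0.40) from Klf4, -0.70 (-1.20 to -0.19) from Klf6, -0.63 (-1.06 to -0.20) from Klf5 and -0.63 (-1.10 to -0.15) from Klf2. From Klf3 the difference was -0.49, with an interval of -1.16 to 0.17 that spans 0. The intervals take the errors of 2 genes as independent, although both come from the same 4 samples, and Klf17 was set against the others with its value known. Of the 15 pairs without Klf17, 0 had an interval that left out 0.

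Between genes, levels were compared per kb of transcript. Klf5 stood highest, at 1050 normalized counts per kb of median transcript length, and Klf3 lowest at 98.4. Between them came Klf4 (731 normalized counts per kb), Klf6 (340), Klf2 (279), Klf9 (171) and Klf17 (151). With the longest annotated transcript in place of the median, Klf5 (972 normalized counts per kb) and Klf3 (19.3) stayed at the ends. The order between them became Klf2 (279), Klf4 (207), Klf17 (151), Klf9 (107) and Klf6 (89.8), so it depends on which isoforms morulae use. The deposited means carry no spread over samples, so it cannot be said which neighbours in these orders differ.

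**Figure D4:**
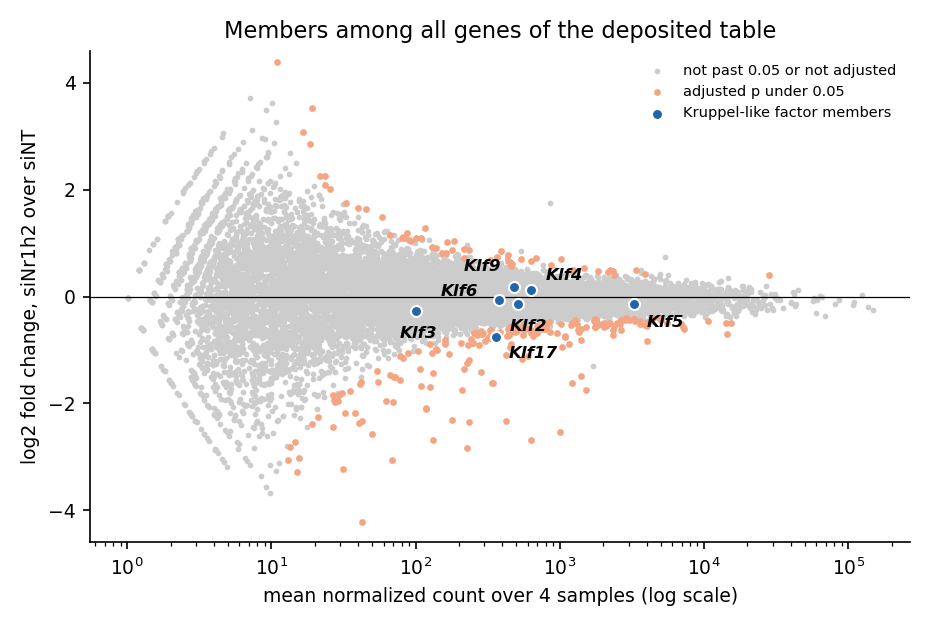
Mean normalized count over the 4 samples on a log axis (horizontal) against the log2 fold change of siNr1h2 over siNT (vertical) for all genes of the deposited table, with genes past an adjusted p of 0.05 in orange and the 7 members in blue. Klf17, at a mean of 363 and -0.76, lies among the genes past the threshold, and the other 6 lie in the band around 0.

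Of 19 further family genes, the other Klf genes and the related Sp factors, 12 had a row and 11 an adjusted p. None passed in the authors' deposited table (DESeq2 Wald test, 0 at an unadjusted p under 0.05). Their log2 fold changes ran from -0.23 to 0.51 with a median of -0.01, beside 0.00 over all genes tested. The smallest p-values belonged to Klf16 at 0.51 ± 0.33 (SE), the general GC-box factor gene Sp1 at -0.18 ± 0.13 and the TGF-beta-inducible Klf10 at -0.20 ± 0.17 in the authors' deposited table. Klf8, which like Klf3 recruits CtBP, stood at 0.01 ± 0.16 with a mean normalized count of 632. Klf15, at a mean of 6.29, had no adjusted p.

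None of the 15 cofactors and ubiquitin ligases of KLFs passed in the authors' deposited table (DESeq2 Wald test, 0 at an unadjusted p under 0.05), with a median log2 fold change of -0.04. The CtBP genes Ctbp1 (0.37 ± 0.23 SE) and Ctbp2 (0.24 ± 0.15) and the corepressor scaffold gene Sin3a (-0.29 ± 0.18) had the smallest p-values in the authors' deposited table. Of 13 tested genes of the LIF-STAT3 and MEK5-ERK5 pathways, which control Klf4 and Klf2 in other cells, none passed in the authors' deposited table (DESeq2 Wald test, 1 at an unadjusted p under 0.05), with a median of 0.09. Lifr (mean 10.7) and Lif (23.5) needed changes of 6.79 and 3.67 times to pass, and Jak1 (737) needed 1.43 times. A miss at such low means does not show a gene unchanged. Ptpn11, which encodes the phosphatase SHP2, stood at 0.36 ± 0.16 (SE, adjusted p = 0.283), the MEK5 pathway kinase gene Map3k3 at 0.41 ± 0.24 and the LIF receptor kinase gene Jak1 at -0.26 ± 0.16 in the authors' deposited table.

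Of 17 pluripotency partners and shared targets, 1 was lower and 16 missed the threshold in the authors' deposited table, and the median log2 fold change was 0.00. Beside the 1.52% of all tested genes that were lower, 1 of 17 says nothing of the list as a whole. The lower gene was the Nodal co-receptor gene Tdgf1 at -0.52 ± 0.16 (SE, adjusted p = 0.0489, authors' deposited table), close to the threshold and past it in 4 of 12 alternative settings. Pou5f1, the core factor that partners Klf4 in reprogramming, stood at 0.43 ± 0.15 (SE, adjusted p = 0.117) and Dppa3, a maternal and germ-cell gene, at -0.26 ± 0.11 (adjusted p = 0.271) in the authors' deposited table.

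Of 13 tested trophectoderm genes, the lineage that needs Klf5, 1 was lower and 12 missed the threshold in the authors' deposited table, and the median was -0.06. Beside the 1.52% of all tested genes that were lower, 1 of 13 says nothing of the list as a whole. The lower gene was the keratin gene Krt8 at -0.50 ± 0.14 (SE, adjusted p = 0.0211), past the threshold in 8 of 12 alternative settings, and its partner Krt18 stood at -0.27 ± 0.13 (adjusted p = 0.362) and the lineage factor gene Tfap2c at 0.15 ± 0.14 in the authors' deposited table. Klf2, Klf4, Klf6 and Klf10 belong to the genes that growth factors and stress induce rapidly in many cells. Of 12 tested immediate-early genes none passed in the authors' deposited table (DESeq2 Wald test, 1 at an unadjusted p under 0.05), with a median of 0.10. At low means, Junb (13.7), Fos (17.7), Fosl1 (17.7) and Ier3 (28.5) needed changes of 3.15 to 5.18 times to pass. Btg2, with the highest mean, needed 1.40 times. Missing the threshold therefore does not show the low-count genes unchanged. The AP-1 gene Jund stood at 0.48 ± 0.24 (SE), the antiproliferative gene Btg2 at 0.27 ± 0.15 and the MAP kinase phosphatase gene Dusp1 at -0.32 ± 0.18 in the authors' deposited table.

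**Figure D5:**
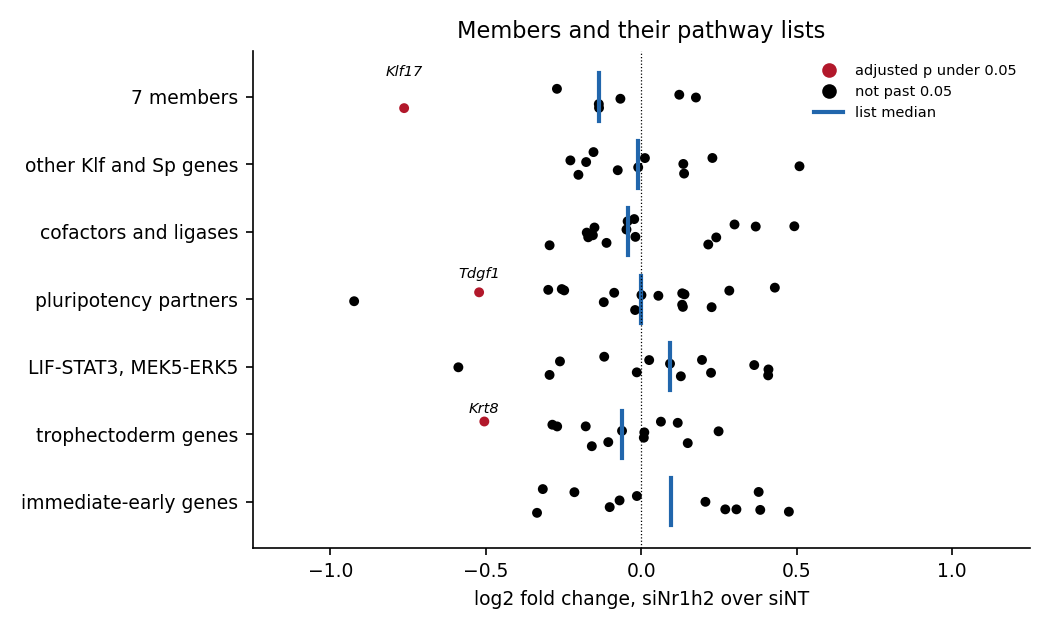
Log2 fold change of siNr1h2 over siNT (horizontal axis) for the 7 members and the tested genes of 6 lists (rows), with genes past an adjusted p of 0.05 in red and the median of each row as a blue line. Klf17, Tdgf1 and Krt8 are the genes past the threshold, and the row medians lie between -0.14 and 0.10.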

How the data were processed

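The labels describe polyadenylated RNA of 4 morula samples, made into libraries with the SMART-Seq v4 and Nextera XT kits, which do not mark strand. Build mm9 and, in no stated order or role, DESeq2, edgeR, STAR, Cufflinks 2.2.1, RSEM and HTSeq 0.12.4 are named per the submitters' processing notes. The deposited table, per the file headers a DESeq2 result, gives a mean normalized count (the authors' signal value), a log2 fold change, its standard error and the Wald statistic (the authors' score columns), and deposited p-values, raw and Benjamini-Hochberg adjusted over 12069 genes. The other 1589 genes, with means up to 8.00, had no adjusted p. Deposited statistics, p-values and adjusted p-values were recomputed and matched within 1e-06. The deposited fit is the test used here. 95% intervals are 1.96 standard errors. Implied group levels assume equal group sizes. Transcript lengths, shared 50-base runs and exon overlaps came from GENCODE M21 (GRCm38), with 99.3% of symbols matched, and promoter windows from RefSeq (GRCm38.p6), with the first window taken where a gene has several. The calling scripts were tested on simulated fold changes. Python 3.11.15, pandas 2.3.3 and scipy 1.17.1 were used. The members, the 6 gene lists and the marker lists were chosen with earlier results of these data known. Named genes are the members, Nr1h2, and in each list those past the threshold and the 3 with the smallest p among genes with an adjusted p. Other genes were named after their values were seen. Alternatives covered the threshold, adjustment, low-count filter, distribution, unnamed models, minimum fold, centring, length and GC trend and transcript length.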

Additional observations from a re-analysis of the deposited data

How the results depend on the processing

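All 12 alternatives started from the deposited fold changes and standard errors, so none is a new test of the samples. The Klf17 decrease was recomputed under these 12 and passed in 10, with log2 fold changes of -0.87 to -0.72 and adjusted p of 0.000333 to 0.00987. The decrease kept its main values at thresholds of 0.01 and 0.1 and at a fold of at least 1.5, so it could not be lost there. It was lost with Holm adjustment (0 lower members, log2 fold change -0.76, adjusted p = 0.374) and with a t distribution with 2 degrees of freedom (0 lower members, -0.76, adjusted p = 0.948), under which 0 genes of the table passed and 68 had an unadjusted p under 0.05, Klf17 not among them (unadjusted p = 0.0531). That test could not pass Nr1h2 after adjustment either (unadjusted p = 0.00654), so the adjusted count says nothing about stability. The other 6 members passed under none of the 12, where their lowest adjusted p was 0.270. Removing the trend with length and GC content, chosen after seeing the data, turned Klf4 to -0.044 (adjusted p = 0.955). Over the whole table, lower and higher genes were 92 and 17 at a threshold of 0.01, 270 and 125 at 0.1, 48 and 1 with Holm, 0 and 0 with the t distribution, 442 and 36 centred on ribosomal protein genes and 116 and 53 with the trend removed. The lower count of the pluripotency list fell to 0 at a threshold of 0.01, with Holm, with no low-count filter, with the t distribution, without unnamed models, at a fold of at least 1.5, centred on genes with means of at least 500 and with the trend removed, and became 2 (Tdgf1 and Dppa3) centred on ribosomal protein genes. The lower count of the trophectoderm list fell to 0 at 0.01, with Holm, with the t distribution and at a fold of at least 1.5. With the longest transcript, counts per kb were 19.3 for Klf3, 207 for Klf4, 972 for Klf5, 89.8 for Klf6 and 107 for Klf9. No paired analysis was possible because the table holds no value per sample, and for the same reason no replicate could be left out and no other count test run. Klf3, the member of lowest mean, had the largest standard error (0.29), and the depth behind it is unknown.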

Other observations

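The nearest measured protein-coding genes on each side of the members, 14 in all and chosen after the data were seen, lie 19.3 to 2127.3 kb away in GRCm38. Of the 12 with an adjusted p none passed in the authors' deposited table (DESeq2 Wald test, 2 at an unadjusted p under 0.05). With 12 genes this cannot be set apart from the 1.98% of all tested genes that passed. Beside Klf17, the chromatin regulator gene Dmap1 stood at a log2 fold change of 0.09 ± 0.17 (SE), and the glycine transporter gene Slc6a9, at a mean normalized count of 4.77, had no adjusted p. Tbc1d4, beside Klf5, had the lowest value at -2.07 ± 0.75 (SE, adjusted p = 0.139, mean 14.9) in the authors' deposited table.

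Promoter windows with a CpG ratio at or below that of Klf17 (0.38) made up 26.7% of the 131 lower genes with a window and 22.2% of the 45 higher genes. They made up 13.6% of the 9407 genes that did not pass. The median ratios were 0.73 in lower, 0.71 in higher and 0.77 in the genes that did not pass. These shares were chosen after the Klf17 window was seen and are a description without a test.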
